A study of Mus musculus with 6 samples.

Results

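Foxp3, Gpr83 and Nrp1 are genes that mark or define regulatory T cells, and 3 of the 4162 genes in the deposited table carry these symbols. They were chosen by symbol because their difference between genotypes was already known. Their genotype contrast is therefore described here without a test. RNA sequencing measured CD4+ T cells of 3 UTX TCD mice, which lack the histone demethylase UTX in T cells, and 3 WT mice on the B6 background, with each library from a separate mouse. Naive CD4+ T cells were isolated magnetically from the spleen and stimulated through the T cell receptor and CD28 for 48 h, with anti-CD3 fixed to the plate and dissolved anti-CD28. Both genotypes had the same isolation and stimulation. The sources used here give no promoter that drives the deletion, no deleted exons, and no age or sex of the mice.

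Regulatory T cells are CD4+ T cells that restrain immune responses, and the transcription factor FOXP3 sets and maintains their identity. Signals from the T cell receptor, the IL-2 receptor and TGF-beta induce Foxp3, and FOXP3 in turn holds down effector cytokine genes. Gpr83 encodes a G protein-coupled receptor that is abundant in mouse regulatory T cells. Nrp1 encodes neuropilin 1, a coreceptor for semaphorins and VEGF whose surface level is used in mice to mark regulatory T cells that arose in the thymus. UTX removes methyl groups from lysine 27 of histone H3.

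The promoter sequences of the genes show what lies around a RefSeq start of each, and all 3 genes matched the RefSeq promoter table (GRCm38.p6). Each entry runs from 250 bases before to 50 bases after an annotated transcript start, on the plus strand, 5′ to 3′. Capitals mark TATAAA, the TATA box core, and GGGCGG, the GC box core. Foxp3 lies at chrX:7579426-7579725, Gpr83 at chr9:14859960-14860259 and Nrp1 at chr8:128358823-128359122.
Foxp3: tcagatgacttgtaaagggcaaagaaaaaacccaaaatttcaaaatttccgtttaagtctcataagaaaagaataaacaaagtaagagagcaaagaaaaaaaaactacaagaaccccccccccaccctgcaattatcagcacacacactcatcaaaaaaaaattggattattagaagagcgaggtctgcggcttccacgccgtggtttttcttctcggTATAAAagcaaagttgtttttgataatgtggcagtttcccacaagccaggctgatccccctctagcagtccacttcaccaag
Gpr83: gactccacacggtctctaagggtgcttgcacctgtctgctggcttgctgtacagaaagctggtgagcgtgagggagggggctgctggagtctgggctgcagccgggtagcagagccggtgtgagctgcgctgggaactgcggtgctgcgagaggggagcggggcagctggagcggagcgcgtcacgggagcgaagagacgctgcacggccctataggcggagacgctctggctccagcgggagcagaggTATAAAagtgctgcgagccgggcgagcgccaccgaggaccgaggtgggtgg
Nrp1: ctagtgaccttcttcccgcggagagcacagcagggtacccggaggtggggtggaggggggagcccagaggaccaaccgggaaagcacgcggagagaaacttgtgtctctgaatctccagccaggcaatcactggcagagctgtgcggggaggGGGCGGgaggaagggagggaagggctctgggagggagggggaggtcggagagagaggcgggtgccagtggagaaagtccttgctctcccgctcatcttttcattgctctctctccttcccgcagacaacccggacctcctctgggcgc
TATAAA began 32 bases before the annotated start of Foxp3 and 1 base before that of Gpr83, and it was not in the Nrp1 window, which held 1 GGGCGG. Searched on both strands, TATAAA was in 13.6% of 32851 promoter windows of the same length and GGGCGG in 35.7%. Among the 4112 windows of listed genes, these shares were 7.9% and 61.5%. The NFAT core GGAAA had 2 matches in Foxp3, 1 in Nrp1 and 0 in Gpr83, against a share of 61.3% of windows with at least 1. The forkhead core TGTTTAC (3.65% of windows) and the STAT motif TTCNNNGAA (8.3%) had no match in these windows. None of these motifs overlapped another in the printed windows. The windows held 6, 24 and 14 CpG for Foxp3, Gpr83 and Nrp1, where the median window held 7, and their GC contents were 40.7%, 67% and 64%. The table lists another Foxp3 start, at position 7580483, whose window held 8 CpG, 1 GGAAA and 1 TTCNNNGAA that overlapped it.

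The genes differ in how cleanly reads can be assigned to them. In GENCODE M21 (GRCm38, the assembly of mm10), Foxp3 (ENSMUSG00000039521) spans 7573644 to 7595245 on chromosome X, and 31.5% of its 4577 exon bases also lie in exons of other genes. These are Flicr, on the same strand, with 853 shared bases, and Ccdc22, Gm36995 and Ppp1r3f on the opposite strand, with 590, 373 and 266. The strand setting and the handling of shared reads are not given, so Foxp3 counts may include or miss reads of these genes. Gpr83 (ENSMUSG00000031932) spans 14860210 to 14870789 on chromosome 9 and shares no exon base. Nrp1 (ENSMUSG00000025810) spans 128358604 to 128503363 on chromosome 8 and shares 0.818% of its exon bases, with the microRNA gene Mir1903. The RefSeq starts of the printed Foxp3 and Nrp1 windows, 7579676 and 128359073, lie inside these spans and not at their first base. That of Gpr83, 14860210, is the first base of its span.

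Several facts of the table bear on what follows. Column totals were 8363326 to 10288306 counts, and CPM, read counts scaled to the same library total, are relative to the listed genes only. Among 4118 tested genes only 20 had a log2 fold change within 0.1 of 0, a gap that a table of all expressed genes would not have, so the table had been filtered by its genotype difference, with a rule that the sources do not give. UTX TCD replicate 2 stood apart, at 42.9 on the first principal component, with UTX TCD replicates 1 and 3 at 18.9 and 24.5 and WT libraries from -31.6 to -24.8. Kdm6a, the gene of UTX, had 188, 207 and 179 CPM in UTX TCD and 286, 281 and 281 CPM in WT libraries, and fell by 0.56 ± 0.09 on the log2 scale (SE, edgeR adjusted p = 0.0029). These counts also cover exons that the deletion may leave in place. Of 11 markers of CD4+ T cells, Cd28 and Lck were in the table, at 1747 and 1375 CPM in UTX TCD and 982 and 1507 CPM in WT libraries, and the other 9, Cd4 among them, were not analysed here.

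Foxp3 was higher in every UTX TCD library. It had 205, 322 and 239 counts in UTX TCD replicates 1, 2 and 3, against 59, 56 and 39 counts in WT replicates 1, 2 and 3. Scaled to the listed genes, this was 24.7, 34.0 and 24.9 CPM in UTX TCD and 5.84, 6.07 and 4.43 CPM in WT libraries. The groups did not overlap, and UTX TCD replicate 2 was the highest library. The means were 27.9 ± 5.33 CPM in UTX TCD and 5.45 ± 0.89 CPM in WT cells (SD, n = 3 each), a 5.12-fold higher level and a log2 fold change of 2.35 ± 0.23 (SE). Without UTX TCD replicate 2 the log2 fold change was 2.17. WT values rest on few reads, with exact Poisson 95% intervals of 44.9 to 76.1, 42.3 to 72.7 and 27.7 to 53.3 counts, which cover counting error only. In RNA from many cells, a larger number of Foxp3-expressing cells and more Foxp3 RNA per cell cannot be told apart.

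Gpr83, the receptor gene, was also higher in every UTX TCD library. It had 166, 131 and 152 CPM in UTX TCD replicates 1, 2 and 3, against 42.5, 53.1 and 42.1 CPM in WT replicates 1, 2 and 3. The groups did not overlap, and UTX TCD replicate 2, highest for Foxp3, was the lowest UTX TCD library for Gpr83. The means were 149.8 ± 17.5 CPM in UTX TCD and 45.9 ± 6.26 CPM in WT cells (SD, n = 3 each), 3.26-fold higher, with a log2 fold change of 1.71 ± 0.14 (SE).

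Nrp1, the semaphorin and VEGF coreceptor gene, went the other way. It had 58.7, 44.5 and 45.0 CPM in UTX TCD replicates 1, 2 and 3, against 128, 157 and 125 CPM in WT replicates 1, 2 and 3. The groups did not overlap, and the highest UTX TCD library was below every WT library. The means were 49.4 ± 8.05 CPM in UTX TCD and 136.9 ± 17.7 CPM in WT cells (SD, n = 3 each), so that the level was 2.77-fold higher in WT and the log2 fold change was -1.47 ± 0.15 (SE). All 3 genes had groups that did not overlap, as had 85.8% of the 4118 tested genes of this selected table, and nothing is read from that count.

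**Figure D1:**
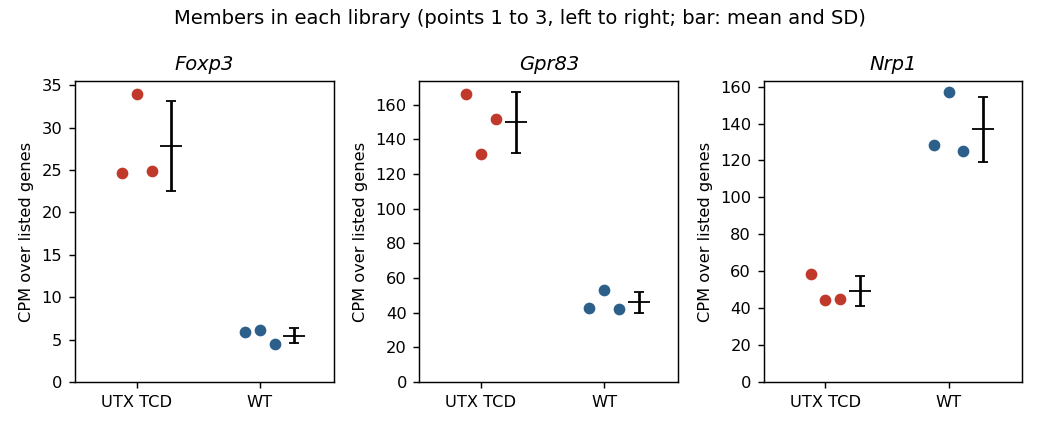
CPM of Foxp3, Gpr83 and Nrp1 (vertical axes, from 0) in the 3 UTX TCD and 3 WT libraries, with points for replicates 1 to 3 from left to right and bars for the mean and SD. Foxp3 and Gpr83 lie higher in all UTX TCD libraries, at means of 27.9 and 149.8 CPM, and Nrp1 lies lower, at 49.4 CPM.

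Per kilobase of merged exons, the order of the 3 genes differed between the genotypes. In UTX TCD cells Gpr83 was first at 29.4 ± 3.44 CPM per kb, and Foxp3 at 6.09 ± 1.17 and Nrp1 at 5.05 ± 0.823 CPM per kb did not differ beyond their spread. In WT cells Nrp1 was first at 14 ± 1.81 CPM per kb, Gpr83 followed at 9.01 ± 1.23 and Foxp3 was last at 1.19 ± 0.195 CPM per kb (SD, n = 3 each). The exon bases that Foxp3 shares with other genes make its value per kilobase less certain than those of Gpr83 and Nrp1.

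Ratios of raw counts within a library need no scaling between libraries. The ratio of Gpr83 to Nrp1 counts was 2.83, 2.95 and 3.37 in UTX TCD libraries, against 0.331, 0.338 and 0.336 in WT libraries. It was 9.11-fold higher in UTX TCD libraries. The WT ratios had an SD of 0.00348. Counting error alone was 4.52% to 5.19% for Gpr83 and 2.63% to 3.01% for Nrp1 counts in WT libraries. The closeness of the WT ratios is below that error, and nothing is read from it. Foxp3 to Nrp1 was 0.421, 0.765 and 0.553 in UTX TCD, against 0.0456, 0.0386 and 0.0354 in WT libraries. Foxp3 and Gpr83 moved by more similar amounts, with ratios of 0.149, 0.259 and 0.164 in UTX TCD and 0.138, 0.114 and 0.105 in WT libraries. Those groups did not overlap, though UTX TCD replicate 1 and WT replicate 1 lay close together, at 0.149 and 0.138. The ratio of Foxp3 to Ikzf2, the gene of the regulatory T cell factor Helios, overlapped between genotypes, at 0.364, 0.363 and 0.784 in UTX TCD and 0.383, 0.566 and 0.684 in WT libraries.

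**Figure D2:**
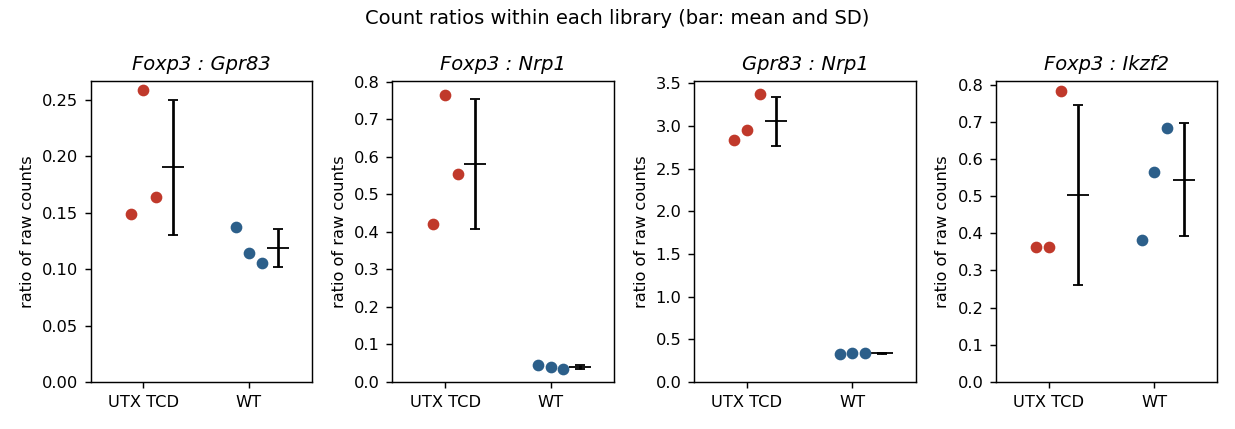
Ratios of raw counts within each library (vertical axes, from 0) for 4 gene pairs, in 3 UTX TCD and 3 WT libraries, with bars for the mean and SD. Gpr83 to Nrp1 separates the genotypes, at 2.83 to 3.37 in UTX TCD and 0.331 to 0.338 in WT libraries, and Foxp3 to Ikzf2 overlaps.

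By size of the fold change, Foxp3 was number 79 and Gpr83 number 189 of the 1917 tested genes with a positive log2 fold change, and Nrp1 was number 180 of the 2201 with a negative value. The genes whose log2 CPM followed each member most closely over the 6 libraries are given as a description, since all points share the genotype split. For Foxp3 these were Zfp101, Stk17b, a serine/threonine kinase gene, and Lrfn1 (Pearson r 0.9977, 0.9976 and 0.9967). For Gpr83 they were Hadhb, a mitochondrial fatty acid oxidation gene, Dock8, a guanine nucleotide exchange factor gene, and the kinase gene Hipk1 (0.9963, 0.9956 and 0.9952). For Nrp1 they were Gtf2e2, a general transcription factor gene, Il2rg, the common cytokine receptor gamma chain gene, and Psd (0.9985, 0.9954 and 0.995). A correlation over 0.9 was common in this table, with 23.9% of 3823 genes for Foxp3, 14.1% for Gpr83 and 14.6% for Nrp1.

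**Figure D3:**
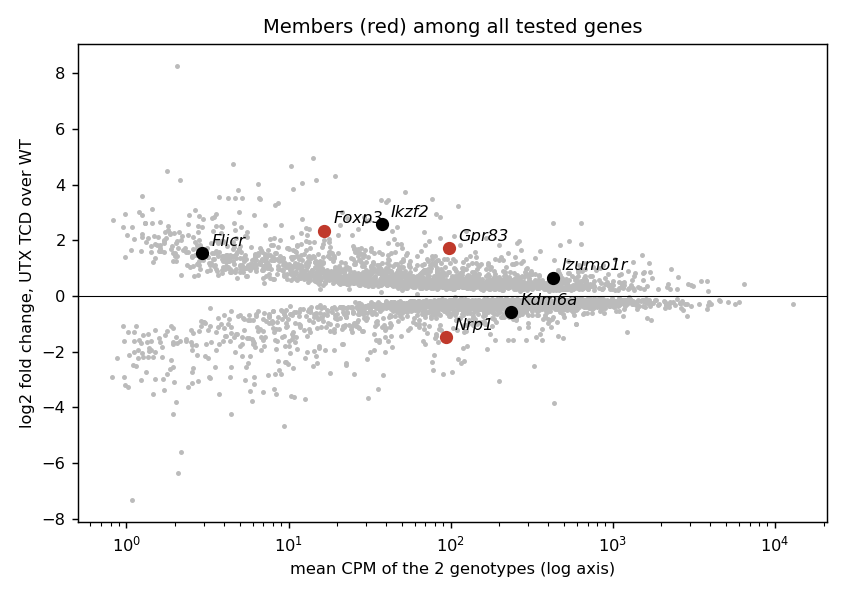
Log2 fold change of UTX TCD over WT (vertical axis) against the mean CPM of the genotypes (horizontal log axis) for all 4118 tested genes, with Foxp3, Gpr83 and Nrp1 in red and 4 other genes in black. The empty band near 0 is the gap left by the selection of the listed genes, and Foxp3 and Gpr83 lie above it at 2.35 and 1.71, with Nrp1 below it at -1.47.

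Most tested genes beside Foxp3 on chromosome X were also higher in UTX TCD cells. The neighbours were chosen after the values were seen, as every listed gene within 500 kb that passed the low-count filter. The listed genes had been filtered by their genotype difference, so neighbours that did not change may be missing. Flicr, a noncoding RNA gene that overlaps Foxp3 and is known in mice to damp Foxp3 expression, had 4.10, 5.07 and 3.96 CPM in UTX TCD libraries, against 0.991, 1.63 and 1.93 CPM in WT libraries. Its groups did not overlap and it rose by 1.53 ± 0.35 on the log2 scale (SE, edgeR adjusted p = 0.011). Since Flicr and Foxp3 share exon bases, their counts are not independent. Of the 7 tested neighbours of Foxp3, 6 rose and 1 did not pass, where 41.1% of all tested genes were called higher. Besides Flicr these were Syp, the synaptophysin gene, at 1.39 ± 0.33, Prickle3 at 1.02 ± 0.22, Usp27x, a deubiquitinase gene, at 1.09 ± 0.25, Wdr45, an autophagy gene, at 0.59 ± 0.18, and Otud5, another deubiquitinase gene, at 0.25 ± 0.08. The kinase gene Pim2 did not pass at 0.48 ± 0.20 (adjusted p = 0.061), but it did with DESeq2 (0.52) and when UTX TCD replicate 1 (0.62), 2 (0.18) or 3 (0.59) was left out. Syp lost its call without WT replicate 1 (1.26), and Wdr45 without WT replicate 1 (0.57) or 2 (0.50). Otud5 lost it without any WT library (0.23, 0.25 and 0.26), with gap-centred scaling, which sets the empty point of the fold changes to 0 (0.18), and with the replicate number as a block in the fit (0.25). With every protein-coding gene counted as a test, Flicr, Syp, Usp27x, Wdr45 and Otud5 did not pass, and Prickle3 kept its call.

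The nearest tested neighbour of Gpr83 was another regulatory T cell gene. Izumo1r encodes folate receptor 4, a surface marker of regulatory and anergic CD4+ T cells, and lies 15 kb away on chromosome 9 on the opposite strand. It had 546, 518 and 502 CPM in UTX TCD libraries, against 342, 323 and 325 CPM in WT libraries. The groups did not overlap, and it rose by 0.66 ± 0.08 on the log2 scale (SE, edgeR adjusted p = 0.0013). Gpr83 differed by more, and the ratio of Gpr83 to Izumo1r counts was 2.06-fold higher in UTX TCD libraries. Of the other tested genes within 500 kb, Kdm4d, a histone demethylase gene, was higher at 2.11 ± 0.54. Med17, a Mediator subunit gene, and Endod1 were lower at -0.31 ± 0.09 and -0.77 ± 0.17. Kdm4d did not pass when WT replicate 1 (2.16) or WT replicate 2 (1.91) was left out, nor did Med17 without WT replicate 1 (-0.32), 2 (-0.30) or 3 (-0.32). Near Nrp1 the only tested gene was the integrin gene Itgb1, which did not pass at -0.22 ± 0.12 (edgeR adjusted p = 0.11). Itgb1 passed with gap-centred scaling (-0.29) and when UTX TCD replicate 1 was left out (-0.34).

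Other genes of the regulatory T cell signature moved in both directions. Of 30 genes fixed for this list, without the 3 members, 18 were in the table and 12 were not analysed here. At an edgeR adjusted p under 0.05, 9 of the 18 rose, 4 fell and 5 did not pass, a share of 72.2% called beside 68.1% of all tested genes. The median log2 fold change was 0.20, against -0.15 over all tested genes. Ikzf2, the Helios gene, had 68.0, 93.8 and 31.8 CPM in UTX TCD libraries, against 15.3, 10.7 and 6.47 CPM in WT libraries, and rose by 2.57 ± 0.44 (adjusted p = 0.0044). Helios, like neuropilin 1, is used in mice as a marker of thymic regulatory T cells, and in these libraries Ikzf2 was higher where Nrp1 was lower. Socs2, a suppressor of cytokine signalling, had 284, 371 and 281 CPM in UTX TCD libraries, against 81.6, 85.4 and 93.8 CPM in WT libraries, and rose by 1.85 ± 0.13 (4.6e-04).

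Further members of the signature that rose were Ikzf4, the gene of the FOXP3 cofactor Eos, at 1.14 ± 0.22, Il2ra, the IL-2 receptor alpha chain gene, at 0.67 ± 0.14, Icos, a costimulatory receptor gene, at 0.46 ± 0.11, and Itgb8, an integrin gene at 1.20 ± 0.41, Tnfrsf18, the GITR gene at 0.59 ± 0.22, and Lag3, an inhibitory receptor gene at 0.33 ± 0.10. Those that fell were Il1rl1, the IL-33 receptor gene, Tigit, an inhibitory receptor gene, Capg at -0.47 ± 0.11 and Nt5e, the gene of the ectonucleotidase CD73, at -0.48 ± 0.18. Il1rl1 had 0.12, 0.423 and 0.313 CPM in UTX TCD libraries, from 1, 4 and 3 reads, against 2.28, 2.93 and 4.20 CPM in WT libraries, and fell by 3.37 ± 0.52. Tigit had 20.5, 30.3 and 19.2 CPM in UTX TCD libraries, against 51.8, 41.9 and 48.4 CPM in WT libraries, and fell by 1.02 ± 0.20. The cytokine subunit gene Ebi3 was at -1.22 ± 0.48 (edgeR adjusted p = 0.051) and the growth factor gene Areg at -1.38 ± 0.58 (0.063). Cd83 was at -0.67 ± 0.36 (0.11), Swap70 at -0.22 ± 0.16 (0.22) and Penk, the proenkephalin gene, at 0.07 ± 0.45 (0.89). These genes did not pass. Cd83 passed with the replicate number as a block (-0.74). When UTX TCD replicate 2 was left out, Cd83 (-1.09) and Swap70 (-0.42) passed. Ebi3 passed with gap-centred scaling (-1.29), with the replicate block (-1.34) and when UTX TCD replicate 2 was left out (-1.97). Areg passed with gap-centred scaling (-1.45) and when UTX TCD replicate 3 was left out (-1.96). Without WT replicate 2 the list had 5 higher and 2 lower members, with Icos (0.48), Capg (-0.42), Tnfrsf18 (0.54), Lag3 (0.29), Itgb8 (1.13) and Nt5e (-0.35) no longer past the threshold, and without WT replicate 1 Tnfrsf18 (0.67), Lag3 (0.30) and Itgb8 (1.37) were lost. Calls of Itgb8 and Nt5e were also lost without UTX TCD replicate 1 (1.19 and -0.41), UTX TCD replicate 2 (0.79 and -0.41) or WT replicate 3 (1.09 and -0.49), that of Tnfrsf18 without WT replicate 3 (0.54) or with gap-centred scaling (0.52), and that of Nt5e with RLE (-0.44) or upper-quartile scaling (-0.41) or DESeq2 (-0.44). Without UTX TCD replicate 2 it had 8 higher and 6 lower members and a median of -0.09.

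**Figure D4:**
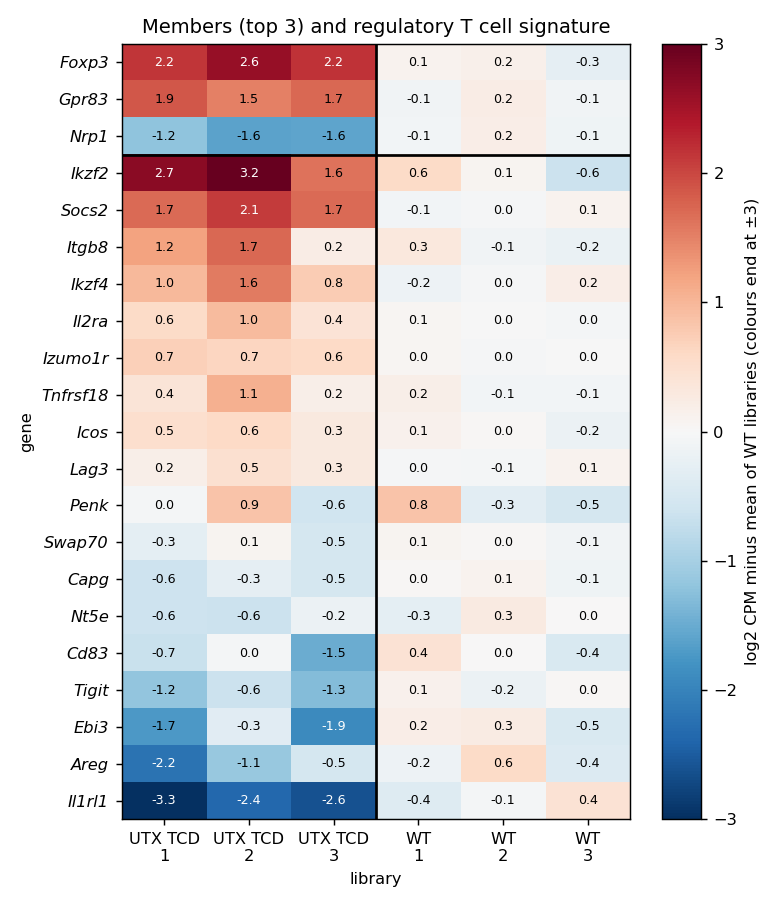
Log2 CPM minus the mean of the WT libraries (colour and printed values) for Foxp3, Gpr83 and Nrp1 (top 3 rows) and 18 genes of the regulatory T cell signature, with a column for each of the 3 UTX TCD and 3 WT libraries. Foxp3, Gpr83, Ikzf2 and Socs2 are high in all UTX TCD libraries, Nrp1, Tigit and Il1rl1 are low, and several genes such as Penk follow single libraries.

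Genes that regulate Foxp3 transcription moved in both directions, with a count of higher members that depended on the setting. Of 30 listed, 15 were tested, and 10 rose, 3 fell and 2 did not pass, 86.7% called beside 68.1% of all tested genes, with a median of 0.51. Of all tested genes, 41.1% rose. Ets1, a transcription factor that binds a Foxp3 enhancer, had 2110, 2848 and 2064 CPM in UTX TCD libraries, against 1037, 931 and 1083 CPM in WT libraries, and rose by 1.20 ± 0.14 (edgeR adjusted p = 0.0013). Lef1, a factor of naive T cells that also works with FOXP3, rose by 0.71 ± 0.08 (0.0012). Tet1 and Dnmt3a, the only enzymes of DNA methylation tested in this list, went opposite ways. Tet1, which starts the removal of DNA methylation, had 48.9, 43.2 and 49.9 CPM in UTX TCD libraries, against 20.2, 25.5 and 26.0 CPM in WT libraries, and rose by 0.99 ± 0.15 (0.0032). Dnmt3a, which writes DNA methylation, had 956, 818 and 899 CPM in UTX TCD libraries, against 1282, 1368 and 1245 CPM in WT libraries, and fell by 0.54 ± 0.09 (0.0038). Of the NR4A nuclear receptors, which T cell receptor signals induce and which activate Foxp3, Nr4a3 rose by 0.66 ± 0.19, Nr4a2 fell by 0.69 ± 0.12 and Nr4a1 did not pass at -0.23 ± 0.09 (0.052). Leaving out WT replicate 1 gave 6 higher members, leaving out WT replicate 2 gave 5, and counting every protein-coding gene as a test gave 5. In these settings higher calls over all tested genes fell from 1692 to 812, 730 and 630. Leaving out UTX TCD replicate 2 gave 5 lower members, where lower calls over all tested genes rose from 1111 to 1458. Nr4a3 did not pass without WT replicate 1 (0.68) or WT replicate 2 (0.57), and Nr4a1 passed without UTX TCD replicate 2 (-0.27), with gap-centred scaling (-0.30) and with no low-count filter (-0.24).

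IL-2 and TGF-beta signals induce Foxp3, and the list of their signalling holds both components and feedback inhibitors. In it 6 of 10 tested genes rose and 1 fell, 70% called beside 68.1% of all tested genes. The TGF-beta receptor gene Tgfbr1 was at 0.50 ± 0.12 (edgeR adjusted p = 0.011), Stat5b, the IL-2 receptor's transcription factor gene, at 0.40 ± 0.10 (0.015), the common TGF-beta mediator gene Smad4 at 0.30 ± 0.08 (0.015) and the kinase gene Jak1 at 0.27 ± 0.07 (0.016). Socs3 and Cish, genes of suppressors of cytokine signalling, were at 0.96 ± 0.26 (0.017) and 0.74 ± 0.23 (0.027), the largest fold changes of the list. Il2rg was lower at -0.21 ± 0.07 (0.038). The median was 0.30. Without WT replicate 2 no member of this list passed, with Tgfbr1 at 0.48, Stat5b at 0.34, Smad4 at 0.31 and Jak1 at 0.27. Socs3 was then at 0.81 and Cish at 0.61, and the median was 0.29. Calls over all tested genes also fell in that setting, from 1692 higher and 1111 lower to 730 and 351. They fell to 812 and 402 without WT replicate 1, and to 1195 and 544 without WT replicate 3. The list had 3 higher members without WT replicate 1, where Smad4 (0.28), Jak1 (0.26) and Socs3 (0.98) were lost. It also had 3 without WT replicate 3, where Stat5b (0.38), Smad4 (0.29), Jak1 (0.28) and Cish (0.65) were lost and Smad3 (0.50) passed. Cish also lost its call without UTX TCD replicate 2 (0.50). The call of Il2rg was lost without UTX TCD replicate 3 (-0.20) or any WT library (-0.22, -0.19 and -0.22 without WT replicates 1, 2 and 3), with RLE (-0.16) or upper-quartile scaling (-0.13), and with the replicate block (-0.21).

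Genes that FOXP3 represses, or that regulatory T cells hold low, moved both ways. Of 4 tested, 1 rose and 3 fell, 100% called beside 68.1% of all tested genes. Il2, the T cell growth factor that FOXP3 represses, had 137, 90.1 and 69.8 CPM in UTX TCD libraries, against 692, 566 and 412 CPM in WT libraries, and fell by 2.50 ± 0.28 on the log2 scale (edgeR adjusted p = 0.0012). Ifng, the interferon gamma gene, fell by 1.91 ± 0.33 (0.0043) and Tbx21, the Th1 factor gene, by 0.98 ± 0.23 (0.011). Il7r, the IL-7 receptor gene that regulatory T cells hold low, rose by 1.57 ± 0.30 (0.0057). Satb1, a chromatin organiser that FOXP3 represses, is counted among the regulators and rose by 1.47 ± 0.28 (0.0057). The median was -1.44, and Il21 did not pass the low-count filter at 2 to 36 reads. Il21 passed the filter and was called higher without UTX TCD replicate 3 or WT replicate 3, which gave 2 higher members and medians of -0.87 and -0.99. It also gave 2 higher members with no low-count filter (median -0.99) and with DESeq2 (-0.94). Without WT replicate 1 (-0.87) or WT replicate 2 (-1.10) Il21 entered the median but was not called.

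Of the ligands and partners of neuropilin 1, 14 of 20 were not analysed here, and of 6 tested 3 rose and 1 fell, 66.7% called beside 68.1% of all tested genes, with a median of 0.54. Nrp2, the related coreceptor gene, was higher at 1.53 ± 0.43 (edgeR adjusted p = 0.020) but at 5.40 ± 2.19 CPM in UTX TCD and 1.88 ± 0.717 CPM in WT cells (SD, n = 3 each) it was far below Nrp1. The VEGF ligand genes Vegfb and Vegfa were higher at 0.87 ± 0.19 (0.0095) and 0.85 ± 0.28 (0.032). Plxnd1, a semaphorin receptor gene, was lower at -0.71 ± 0.13 (0.0048). Nrp2 did not pass without WT replicate 1 (1.24) or WT replicate 3 (1.59), and Vegfa without WT replicate 1 (0.88), 2 (0.72) or 3 (0.94) or with the replicate block (0.77). Without UTX TCD replicate 2, Vegfa was at 0.43, the median was 0.26 and 2 members were lower.

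**Figure D5:**
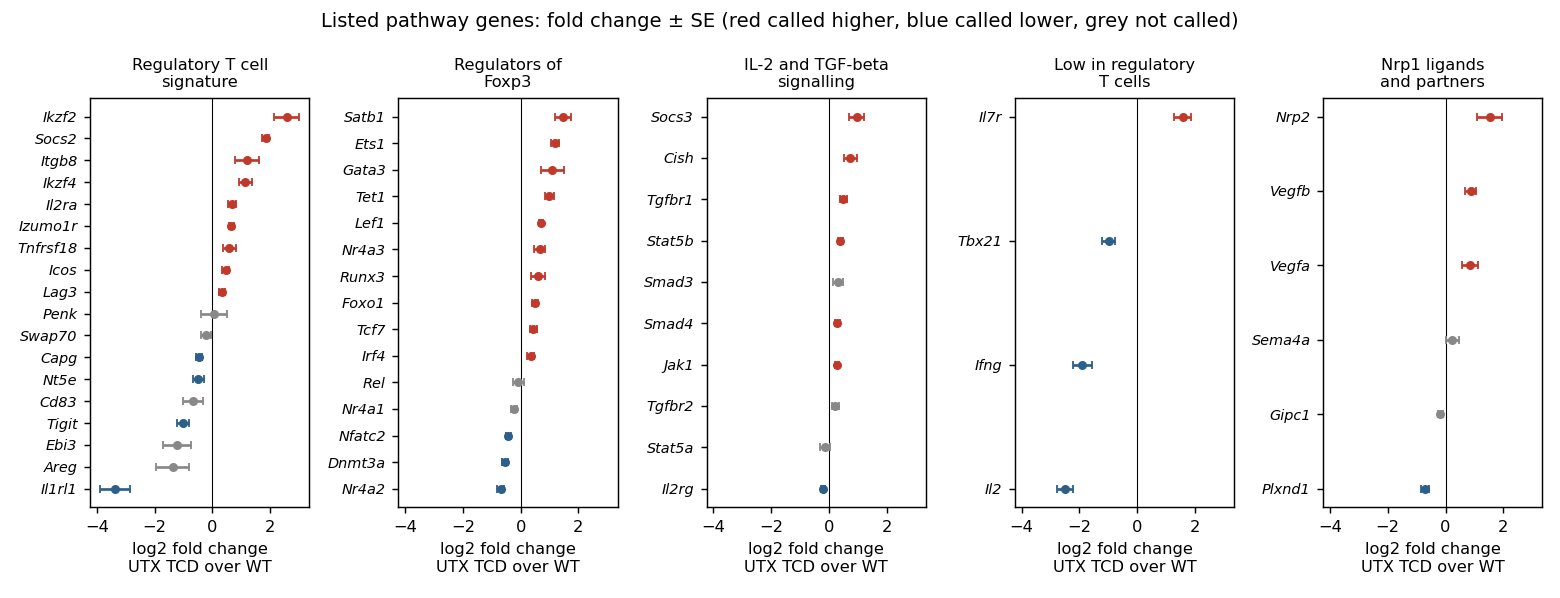
Log2 fold change of UTX TCD over WT with its standard error (horizontal axes) for the tested genes of 5 lists, red where called higher, blue where called lower and grey where not called at an edgeR adjusted p under 0.05. The signature spans -3.37 for Il1rl1 to 2.57 for Ikzf2, and the regulators span -0.69 for Nr4a2 to 1.47 for Satb1.

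Markers of other cells that a CD4+ T cell preparation could hold were mostly not analysed here, with 0 of 7 B cell, 0 of 9 myeloid and 0 of 6 dendritic cell markers in the table. Of 2 CD8+ T cell markers, Cd8b1 was listed, at 31.5, 56.2 and 40.8 CPM in UTX TCD and 11.6, 14.5 and 12.8 CPM in WT libraries, and it rose by 1.72 ± 0.24 (edgeR adjusted p = 0.0023). Of 5 endothelial markers, Pecam1, which naive T cells also express, was listed, at 206, 369 and 324 CPM in UTX TCD and 113, 117 and 138 CPM in WT libraries, and it rose by 1.29 ± 0.21 (0.0036). Of 7 markers of NK cells and unconventional T cells, Eomes and Trdc were listed and did not pass, with sums of 26.3 to 54.4 CPM in UTX TCD and 24.0 to 63.7 CPM in WT libraries. The part of these cells in the levels of Foxp3, Gpr83 and Nrp1 was not tested.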

How the data were processed

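The authors deposited unnormalized read counts for each gene, with 1 column for each of 6 libraries. FastQC, HISAT2, HTSeq and the build mm10 were used, per the submitters' processing notes. The sources used here give neither their versions nor the annotation or strand setting. Columns were tied to samples by genotype and number. Columns summed to 8363326 to 10288306 counts over the listed genes, which is not the full depth of the libraries.

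The quasi-likelihood test of edgeR 4.0.16 in R 4.3.3 was run on all genes with genotype as the only term, TMM scaling, filterByExpr with a minimum count of 10 and a minimum total of 15 (44 genes left out) and Benjamini-Hochberg adjustment over 4118 genes. Genes are called at an adjusted p under 0.05. Adjustment over a table selected on the genotype difference gives adjusted p-values that are too small. Standard errors were derived from the log2 fold change and its F statistic. Correlations used log2 CPM with a prior count of 2. The edgeR fit was tested on simulated counts in which most genes did not change, unlike the listed genes, so that test does not cover their selection. Between replicates the chi-square statistic per degree of freedom was 7.09 to 87.7, and all libraries were kept as separate replicates. The members and gene lists were chosen with earlier results of these data known. Named genes are the members, Kdm6a, the 4 called genes of lowest p in each list, and the 3 genes most correlated with each member; further list genes and all neighbours were named after their values were seen. Alternatives were 3 other scalings, no filter, DESeq2 1.42.0, a replicate block, a count of all 21951 annotated protein-coding genes as tests, and leaving out each library. A gene of the list of genes low in regulatory T cells is not reported here and was left out of its counts.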

Additional observations from a re-analysis of the deposited data

How the results depend on the processing

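The log2 fold changes of Foxp3, Gpr83 and Nrp1 kept their direction in all 12 alternatives that refit them. They ranged from 2.17 to 2.44 for Foxp3, 1.63 to 1.82 for Gpr83 and -1.61 to -1.36 for Nrp1. The shifts were below the spread between replicates. Leaving out 1 of 3 libraries can hardly move a mean by more than that spread, so nothing is read from their size. Calls split 60.4% higher (1692 higher and 1111 lower genes), 70.6% with upper-quartile scaling (1742 and 725) and 46.5% with a scaling that puts the gap in the fold changes at 0 (1569 and 1806). With every protein-coding gene counted as a test, 630 genes were higher and 296 lower. By that count the signature had 5 higher and 2 lower members and the regulators 5 higher. The IL-2 and TGF-beta list had 0 and 0, and the neuropilin 1 partners 0 higher. Of the Foxp3 neighbours, Flicr (edgeR adjusted p = 0.056), Syp (0.064), Usp27x (0.056), Wdr45 (0.13) and Otud5 (0.17) did not pass. Nor did Kdm4d (0.077), Med17 (0.11) and Endod1 (0.052) near Gpr83. The lower count of the IL-2 and TGF-beta list was 0 with RLE scaling, upper-quartile scaling or the replicate block, and that of the neuropilin 1 partners was 2 with gap-centred scaling. The list low in regulatory T cells had 2 higher members with no low-count filter or with DESeq2.

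With any 1 library left out, 730 to 1824 genes were higher and 351 to 1458 lower. The signature had 5 to 9 higher and 2 to 6 lower members, and its median was -0.088 without UTX TCD replicate 2 and at most 0.41 (without WT replicate 1). The regulators had 5 to 10 and 3 to 5, the IL-2 and TGF-beta list 0 to 7 and 0 to 1, the list low in regulatory T cells 1 to 2 higher, and the neuropilin 1 partners 1 to 3 and 1 to 2. Of the 79 other genes followed through the alternatives (list members, neighbours and correlated genes), 62 were called, and 33 of these kept the call whichever library was left out. Whether replicate numbers pair the libraries could not be settled with 3 libraries per genotype. Deviations of same-numbered libraries correlated at 0.279, -0.281 and 0.18. Of 3 UTX TCD libraries 2 correlated best with their own number, and of 3 WT libraries 1 did. With the replicate block 1607 genes were higher and 1026 lower, with Foxp3, Gpr83 and Nrp1 in the range above. Low counts limit Foxp3 in WT libraries, where counting error alone was 13% to 16%.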
